A study of Mus musculus with 15 samples.

Results

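AP-1 and EGR transcription factors were examined in Mouse Embryonic Fibroblasts (MEFs) exposed to 4 cytokine treatments. The 10 genes *Fos*, *Fosb*, *Fosl1*, *Fosl2*, *Jun*, *Junb*, *Jund*, *Egr1*, *Egr2* and *Atf3* were chosen by name as members of these families. They were chosen with earlier results of these data known, so that counts among them are a description. They had 14 probes among the 56605 distinct probes of the array, out of 23462 genes with a name. Of these 14 probes, 13 were bright enough to be tested, and every gene had at least 1 of them. The whole array gave 29334 tested probes, for 13523 named genes. The cells were Balb/c 3T3 clone A31, an immortal line grown from embryo fibroblasts, so that all arrays come from 1 clone and not from separate animals. RNA was measured on 15 one-color arrays in 5 groups of 3: untreated controls, TNFα at 10 ng/ml, TGFß1 at 5 ng/ml, IL-1β at 1 ng/ml, and IL-6 at 20 ng/ml given with its soluble receptor sIL-6Rα at 25 ng/ml. The culture medium contained fetal calf serum. The study stimulated the TNFα and TGFß1 groups for 24 h before RNA measurement, and the exposure of the IL-1β and IL-6 groups was not stated separately. Arrays are named below by their group and the number that opens their label.

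AP-1 is a dimer of proteins of the FOS, JUN and ATF families, joined through a leucine zipper and bound to short DNA sites near genes of growth, inflammation and matrix turnover. JUN proteins can pair with each other or with FOS proteins, whereas FOS proteins need a JUN partner. EGR proteins are zinc finger factors bound to GC-rich sites. Many of these genes are immediate-early genes: growth factors, serum, cytokines and stress switch them on within minutes through MAP kinases, and their RNA is short-lived. In fibroblasts, AP-1 is known for driving matrix metalloproteinase genes and EGR proteins for acting downstream of TGFß1. The arrays therefore show these genes a day after the TNFα or TGFß1 stimulus and not during its first wave.

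A level is given below as the log2 signal of the probe minus the 75th percentile of its array, so that it can be compared between arrays but not between probes. The 75th percentile was 508 to 683 brightness units, and 48.3% to 54.9% of the probes were well above background. All 8 fibroblast markers, such as *Col1a1* and *Pdgfra*, were well above background on all 15 arrays. The same held for 3 of 6 leukocyte, 0 of 4 epithelial and 1 of 3 endothelial markers, and 2 of each of these lists were above background on no array. The arrays lay on 2 slides: slide 1 held control 1 and 11, TNFα 14, TGFß1 7, IL-1β 5 and 10 and IL-6 3 and 8, and slide 2 held the other 7. The study names 3 independent experiments, but the labels do not say which arrays share one, so p-values measure the spread between these arrays. Runs of arrays, described below, shared deviations once the slide was removed (Pearson's r 0.114 to 0.671 over 30 same-run pairs). The main test leaves runs and slides out.

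AP-1 and EGR genes changed with TNFα and with TGFß1, up for some members and down for others. A change was called at a q-value below 0.05 together with a fold-change of 1.5 or more (limma's moderated test over all tested probes). By this rule TNFα changed 4 of the 10 genes: *Fosl1*, *Junb* and *Atf3* rose and *Fos* fell. TGFß1 changed 6: *Fosb*, *Junb* and *Egr2* rose, and *Fos*, *Fosl2* and *Jun* fell. *Fos* (lower) and *Junb* (higher) were called with both cytokines, and *Jund* and *Egr1* with neither. Over all probes, 10.2% were called with TNFα and 18.0% with TGFß1. Among the probes that represent named genes these shares were 12.7% and 21.2%. By direction, 4.12% of all probes were called higher and 6.06% lower with TNFα, and 7.17% and 10.8% with TGFß1. The median log2 fold-change of the 10 genes was 0.14 with TNFα and 0.33 with TGFß1, where the median of all tested probes was 0.04 and 0.05. Arrays of the cytokine and control groups did not overlap for 5 genes with TNFα and 6 with TGFß1, where this held for 29.6% and 39.1% of all probes. IL-1β and IL-6 changed none of the 10 genes by this test. These counts depend on leaving out runs and slides. With the run as a block, *Junb* with IL-6 was called (limma q = 0.0282). With run and slide in the model, *Jun* with TNFα was also called (0.65, limma q = 0.000277). Each cytokine was compared with the same 3 control arrays, so that the 4 comparisons are not independent.

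**Figure D1:**
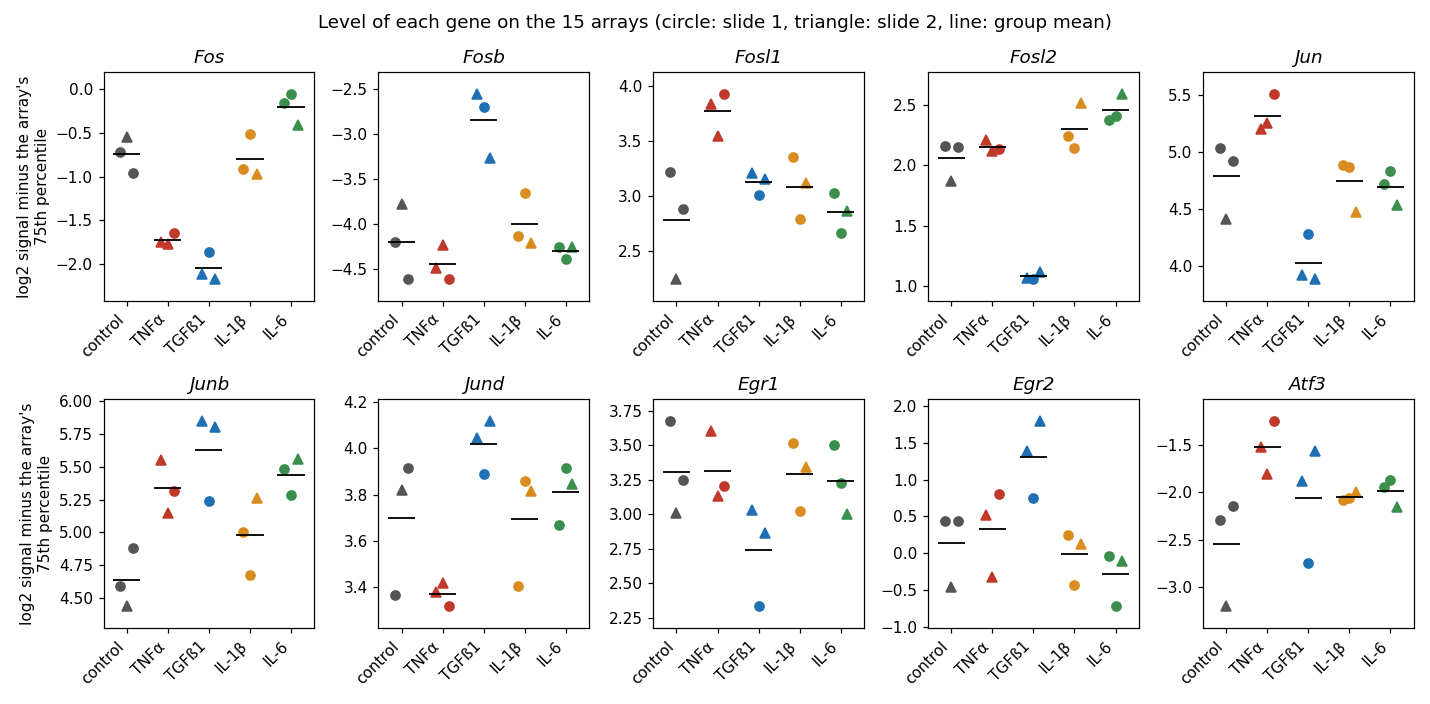
Level of each AP-1 and EGR gene on the 15 arrays (log2 signal minus the 75th percentile of the array), one panel per gene with its own vertical axis. Points are arrays (circles on slide 1, triangles on slide 2) and lines are group means of 3 arrays. *Fos* was lowest on the 6 TNFα and TGFß1 arrays, and *Fosl2* lay at 1.06 to 1.11 on the TGFß1 arrays against 1.87 to 2.16 on the controls.

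Promoter sequence was read for the genes that the RefSeq table (assembly GRCm38.p6) holds, 8 of the 10; *Fosl1* and *Egr1* had no entry. The stretch shown is the 120 bases before the start site, 5′ to 3′ on the strand of the gene. Capitals mark a match, on either strand, to the CRE core TGACGT bound by ATF and CREB proteins, to the site TGACATCA known from the *Jun* promoter, or to the EGR site GCGNGGGCG. They are shown for the called genes that hold a match, since *Fos* and *Jun* are known to be bound by ATF and JUN proteins themselves.
Fos, chr12:85473770-85473889, plus strand: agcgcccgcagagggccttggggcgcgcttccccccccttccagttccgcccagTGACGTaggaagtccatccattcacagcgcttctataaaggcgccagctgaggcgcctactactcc
Jun, chr4:95052223-95052342, minus strand: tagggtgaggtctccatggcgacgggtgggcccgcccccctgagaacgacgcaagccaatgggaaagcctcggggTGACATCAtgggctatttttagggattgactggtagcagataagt
Atf3, chr1:191183334-191183453, minus strand: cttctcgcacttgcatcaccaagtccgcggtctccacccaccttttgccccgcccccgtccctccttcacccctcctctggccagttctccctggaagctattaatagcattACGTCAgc
Fosb, chr7:19310046-19310165, minus strand: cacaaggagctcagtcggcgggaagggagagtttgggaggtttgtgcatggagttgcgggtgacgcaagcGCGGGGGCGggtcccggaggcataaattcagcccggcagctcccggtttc
Fosl2, chr5:32136352-32136471, plus strand: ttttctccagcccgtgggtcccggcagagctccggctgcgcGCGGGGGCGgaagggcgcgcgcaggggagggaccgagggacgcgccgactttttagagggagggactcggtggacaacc
For *Egr2*, 30 bases are shown (chr10:67537793-67537822, plus strand), with a CArG box, the site of serum response factor, and the CRE core on the other strand in capitals.
Egr2: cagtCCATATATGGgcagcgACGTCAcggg
The table holds 5 start sites for *Egr2*. The windows of 3 of them, which overlap, hold these matches, 1 holds a different CArG box and no CRE core, and 1 holds no match.
*Junb* and *Jund* held none of these letters in their windows. Over the 32851 start-site windows of the table, 300 bases each, 7.51% held the CRE core, 3.62% TGACATCA, 5.55% the EGR site and 1.63% the CArG box. The AP-1 site TGANTCA, also searched, was in 7.81% of the windows and in none of these 8 genes. A match is a run of letters and does not show that a factor was bound.

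*Fos* encodes the founding FOS protein and is a classic serum response gene. Its level was -0.71, -0.55 and -0.96 on control arrays 1, 6 and 11. It was -1.75, -1.77 and -1.65 on TNFα arrays 4, 9 and 14, and -2.12, -1.86 and -2.17 on TGFß1 arrays 2, 7 and 12. All 6 of these arrays lay below all controls. In bulk RNA, fewer cells that express a gene and less RNA per cell cannot be told apart. *Fos* fell by 0.98 on the log2 scale with TNFα (SE 0.15, n = 3 arrays per group, limma q = 0.00135), a fold-change of 1.98. With TGFß1 it fell by 1.31 (SE 0.15, limma q = 0.000116), a fold-change of 2.48. The IL-1β arrays (-0.91, -0.51 and -0.97) overlapped the controls and the IL-6 arrays (-0.16, -0.06 and -0.42) lay just above them. From lowest to highest, the group means were TGFß1 -2.05, TNFα -1.72, IL-1β -0.80, control -0.74 and IL-6 -0.21. Of neighbours in this order, only TNFα and IL-1β differed by the call (log2 difference 0.92, limma q = 0.00432).

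*Fosb*, whose short protein form is known for lasting after repeated stimulation, was dim. Its level was -4.20, -3.78 and -4.61 on the controls, the last of which was not well above background. The TGFß1 arrays were at -2.56, -2.70 and -3.27, above every array of the other 4 groups. *Fosb* rose by 1.35 with TGFß1 (SE 0.23, limma q = 0.00134), a fold-change of 2.56. The difference from control with TNFα was -0.24 (95% interval -0.75 to 0.26), so that the opposite order was not resolved. TNFα against TGFß1, tested directly, gave -1.60 (limma q = 0.000445).

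*Fosl1* encodes FRA-1, a FOS protein without the strong activation domain of FOS, often abundant in migrating cells. Its level was 3.22, 2.25 and 2.88 on the controls and 3.84, 3.54 and 3.93 with TNFα. All TNFα arrays were above all 12 other arrays. *Fosl1* rose by 0.99 with TNFα (SE 0.22, limma q = 0.0117), a fold-change of 1.98. This call was lost with median scaling (limma q = 0.103) and with only the 6 arrays compared (0.0839). The TGFß1 arrays (3.21, 3.01 and 3.16) lay within the range of the controls, with a difference of 0.34 (95% interval -0.14 to 0.83). The direct difference of 0.64 between TNFα and TGFß1 was not called (limma q = 0.0732), but was called with the runs of arrays described below as a block (limma q = 0.00605).

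*Fosl2* encodes FRA-2, the related FOS protein that is known from mouse models of skin and lung fibrosis. It had the smallest standard error of the 10 genes. Its level was 2.16, 1.87 and 2.15 on the controls, and 1.06, 1.06 and 1.11 with TGFß1. *Fosl2* fell by 0.99 with TGFß1 (SE 0.12, limma q = 0.000142), a fold-change of 1.98. TNFα gave 2.21, 2.12 and 2.14, at a difference of 0.09 (95% interval -0.17 to 0.35). Directly compared, TNFα was above TGFß1 by 1.08 (limma q = 5.91e-05).

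*Jun* encodes c-JUN, the activating JUN partner. Its level was 5.04, 4.42 and 4.92 on the controls and 3.92, 4.28 and 3.89 with TGFß1. *Jun* fell by 0.76 with TGFß1 (SE 0.18, limma q = 0.00997), a fold-change of 1.70. This call was lost with median scaling (limma q = 0.101) and with only the 6 arrays compared (0.0587), on slide 1 (0.0860) and, by the fold criterion, on slide 2. With TNFα it was 5.20, 5.25 and 5.51, above all controls, but the difference of 0.53 (SE 0.18, limma q = 0.0813) was not called. With the slide as a term of the model this difference was 0.65 and was called (limma q = 0.000413). TNFα and TGFß1 lay on opposite sides of control and differed by 1.29 (limma q = 0.000377).

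*Junb* encodes JUNB, which can oppose c-JUN at some promoters. Its level was 4.59, 4.44 and 4.88 on the controls, 5.55, 5.15 and 5.31 with TNFα, and 5.85, 5.24 and 5.80 with TGFß1. Both treated groups were above all controls. *Junb* rose by 0.70 with TNFα (SE 0.20, limma q = 0.0354) and by 0.99 with TGFß1 (SE 0.20, limma q = 0.00346), fold-changes of 1.62 and 1.99. The TNFα call was lost without control 1 (limma q = 0.0872), control 6 (0.108), TNFα 4 (0.149) or TNFα 14 (0.0750). It was also lost with median scaling (limma q = 0.165) and without the filter on dim probes (0.0865). The same held with only the 6 arrays compared (limma q = 0.0699) and with the mean over its probes (0.118).

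*Jund* encodes JUND, the JUN protein that resting cells already hold. Its level was 3.37, 3.82 and 3.91 on the controls, 3.38, 3.42 and 3.32 with TNFα, and 4.05, 3.89 and 4.12 with TGFß1. Neither difference from control was called, with -0.33 for TNFα (95% interval -0.67 to 0.02) and 0.32 for TGFß1 (-0.03 to 0.66). The 2 cytokines differed from each other by -0.65, TNFα below TGFß1 (limma q = 0.0145), and their arrays did not overlap.

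*Egr1*, the best known EGR gene and a serum response gene like *Fos*, was 3.68, 3.01 and 3.25 on the controls. The TNFα arrays were at 3.60, 3.13 and 3.20 and the TGFß1 arrays at 3.03, 2.34 and 2.87. TNFα gave a difference of 0.00 (95% interval -0.50 to 0.50). TGFß1 gave -0.57 (SE 0.23, limma q = 0.0935), with 1 TGFß1 array inside the range of the controls, and was not called. With the slide and the runs of arrays described below in the model, it was -0.57 (SE 0.13, limma q = 0.00417). This passed the q-value but not the fold criterion.

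*Egr2* encodes the related zinc finger protein KROX20. Its level was 0.43, -0.46 and 0.44 on the controls and 1.39, 0.75 and 1.79 with TGFß1, all above the controls. *Egr2* rose by 1.18 with TGFß1 (SE 0.36, limma q = 0.0321), a fold-change of 2.26. This call was lost without control 6 (0.88, limma q = 0.122), TGFß1 2 (1.14, 0.0899) or TGFß1 12 (0.94, 0.126). It was also lost with median scaling (limma q = 0.0776), without the filter on dim probes (0.0695) and with only the 6 arrays compared (0.0697). With TNFα (0.52, -0.33 and 0.80) the difference was 0.19 (95% interval -0.59 to 0.98).

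*Atf3* encodes a stress-induced ATF protein that often acts as a repressor. It was -2.29, -3.20 and -2.14 on the controls and -1.52, -1.81 and -1.25 with TNFα. *Atf3* rose by 1.02 with TNFα (SE 0.30, limma q = 0.0451), a fold-change of 2.03. Control 6 was lower than every other array, and without it the difference was 0.69 (limma q = 0.140). The call was also lost without control 1 (1.15, limma q = 0.0568), TNFα 4 (1.02, 0.122), TNFα 9 (1.16, 0.0566) or TNFα 14 (0.88, 0.130). Quantile normalization (limma q = 0.0618) and median scaling (0.160) lost it as well. So did the fits without the filter on dim probes (limma q = 0.0995) and with only the 6 arrays compared (0.114). The TGFß1 arrays spread from -2.74 to -1.56, with a difference of 0.48 (95% interval -0.18 to 1.14).

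**Figure D2:**
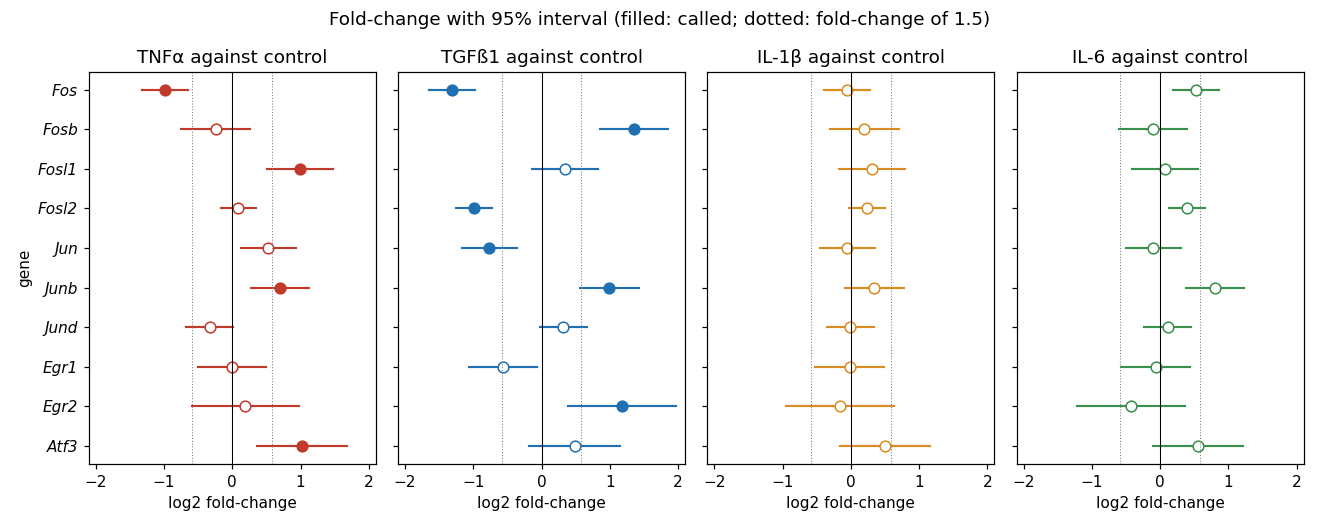
Log2 fold-change of each AP-1 and EGR gene against control, one panel per cytokine (points, with 95% intervals from limma; filled where called; dotted lines at a fold-change of 1.5). TNFα has 4 filled points and TGFß1 6, with *Fos* on the left and *Junb* on the right in both, and IL-1β and IL-6 have none.

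With IL-1β, 0 of the 10 genes were called and 0 had an unadjusted limma p below 0.05. Of all 29334 tested probes, 0.252% were called and 1088 had such a p. The differences ran from -0.16 for *Egr2* to 0.50 for *Atf3*. *Atf3* was also the 1 gene whose IL-1β arrays (-2.08, -2.06 and -1.99) were all above the controls, which held for 5.38% of all probes in either direction. With IL-6 and its receptor, 0.0648% of all 29334 tested probes were called and 955 had an unadjusted limma p below 0.05. Of the 10 genes, 0 were called and 3 had such a p. These 3 genes were also the ones whose IL-6 and control arrays did not overlap, where 5.19% of all probes did not. *Junb* was 5.48, 5.29 and 5.56 with IL-6, a difference of 0.80 (SE 0.20, limma q = 0.419). *Fos* differed by 0.53 (SE 0.15, limma q = 0.677) and *Fosl2* by 0.40 (SE 0.12, limma q = 0.732). Read by their label numbers, the 15 arrays fall into 3 consecutive blocks of 5 in which every group occurs. With these runs in the model, the *Junb* difference passed the call (limma q = 0.0282, and 0.00560 with the slide as well). Over all probes, calls with IL-6 rose too, from 19 to 68 with the runs and 228 with the slide as well.

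The cytokines were also compared directly, so that a call with one and not with another is not read as a difference. Over 6 comparisons, 19 of the 60 differences of these genes were called. TNFα and TGFß1 differed for 4 genes, *Fosb*, *Fosl2*, *Jun* and *Jund*, where 11.8% of all probes were called. IL-1β and TGFß1 differed for 6, *Fos*, *Fosb*, *Fosl2*, *Jun*, *Junb* and *Egr2* (17.0% of all probes). IL-6 and TGFß1 differed for 5 of those 6, without *Junb* (16.4%). IL-6 and TNFα differed for 3, *Fos*, *Fosl1* and *Jun* (8.68%), and IL-1β and TNFα for *Fos* alone (4.83%). IL-1β and IL-6 differed for 0 genes in limma's test, with an unadjusted p below 0.05 for 2. Of all 29334 probes, 0.419% were called here and 1417 had such a p. The largest of the 60 differences was that of *Fos*, 1.84 higher with IL-6 than with TGFß1 (SE 0.15, limma q = 8.45e-06), a fold-change of 3.58. *Atf3* and *Egr1* were called in no direct comparison. With 1 array left out, *Jun* between IL-6 and TNFα lost its call in 6 of 6 fits (limma q 0.0823 to 0.144). Calls were lost in 4 of 6 for *Junb* between IL-1β and TGFß1, whose arrays overlapped, and for *Jun* between IL-6 and TGFß1. They were lost in 3 of 6 for *Fosl1* between IL-6 and TNFα and for *Jun* and *Egr2* between IL-1β and TGFß1. *Jund* between TNFα and TGFß1 lost its call in 1 of 6. With the run as a block, TNFα and TGFß1 also differed for *Fosl1* (0.64) and *Egr2* (-0.98, limma q = 0.000275), IL-6 and TNFα for *Egr2* (-0.62, limma q = 0.00665), IL-1β and TNFα for *Fosl1* (-0.68, limma q = 0.00784) and IL-1β and IL-6 for *Fos* (-0.59, limma q = 0.0395). With the slide as well, these 5 stayed called, IL-1β and TNFα also differed for *Jun* (-0.70, limma q = 0.000351), and IL-6 and TGFß1 no longer did for *Jun* (0.54, below the fold criterion).

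Of the 4 genes with a second probe, *Fosb* had one that was above background on no array, and 3 had one that was tested. The second probe of *Jund* was 3.00, 3.04 and 3.12 on the controls and 2.52, 2.50 and 2.47 with TNFα. It was lower with TNFα by a difference of -0.56 (SE 0.09, limma q = 0.00158), which passed the q-value but, at a fold-change of 1.47, not the fold criterion. By the q-value alone, 13.0% of all probes passed with TNFα. Against TGFß1 this probe differed by -0.70 (limma q = 0.000177), so that both *Jund* probes were called in the direct comparison and in the same direction. The second probe of *Junb* was higher by 0.39 with TNFα (limma q = 0.458) and by 0.61 with TGFß1 (limma q = 0.168) and was called with neither. The second probe of *Fosl2* was dim, above background on 2 or 3 of the arrays of each group. It did not follow the brighter probe against control. With TNFα it was higher by 0.76 (limma q = 0.136), all 3 arrays above the controls, and was not called. Between TNFα and TGFß1 it went the same way as the brighter probe, by 0.87 (limma q = 0.0834), also not called. Its difference from control with TGFß1 was -0.11 (95% interval -0.78 to 0.57), and the mean of both probes gave -0.55, past the q-value but below the fold criterion. Which transcript forms each probe detects was not tested.

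**Figure D3:**
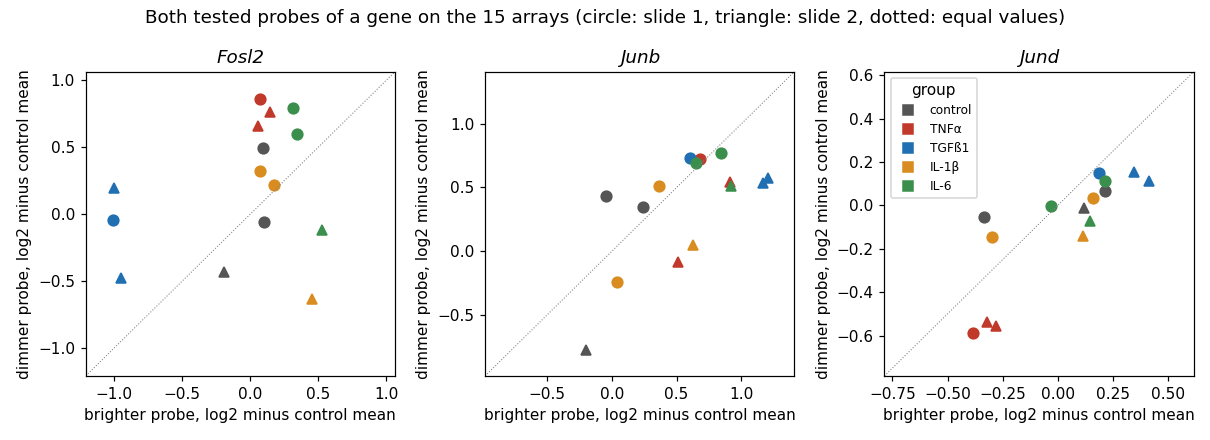
Brighter against dimmer probe of *Fosl2*, *Junb* and *Jund* on the 15 arrays, each as log2 level minus the control mean of that probe (circles slide 1, triangles slide 2, colour for the group, dotted line for equal values). The 3 TNFα arrays lie lowest on the dimmer *Jund* probe, and the TGFß1 arrays of *Fosl2* lie apart from all others on the brighter probe only.

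Slides differed in their mix of groups, with 1 control array and 2 TNFα arrays on slide 2 and the reverse on slide 1. With the slide as a term, all 10 calls against control were kept, *Fos* at -0.94 and -1.26, for example. With run and slide, *Egr2* with TGFß1 was 1.23 (limma q = 1.34e-05). *Atf3* and *Junb* with TNFα were 1.08 (limma q = 0.00798) and 0.65 (limma q = 0.000647) in that fit, all 3 called. Within a slide, where 1 array stands for a group and is assumed to vary like the others, *Fosl2* with TGFß1 was -1.10 on slide 1 and -0.78 on slide 2, both called. *Fos* was -0.81 and -1.21 with TNFα and -1.03 and -1.59 with TGFß1, *Fosl1* was 0.88 and 1.44 and *Atf3* 0.97 and 1.54 with TNFα. *Junb* was 0.58 and 0.91 with TNFα and 0.50 and 1.39 with TGFß1, and *Jun* -0.70 and -0.51 with TGFß1. *Egr2* with TGFß1 was 0.32 on slide 1 and 2.05 on slide 2, and *Fosb* 1.70 and 0.87. *Atf3* with TGFß1 was -0.53 on slide 1 and 1.48 on slide 2, where it was called. The part of the slide in these differences was not tested.

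**Figure D4:**
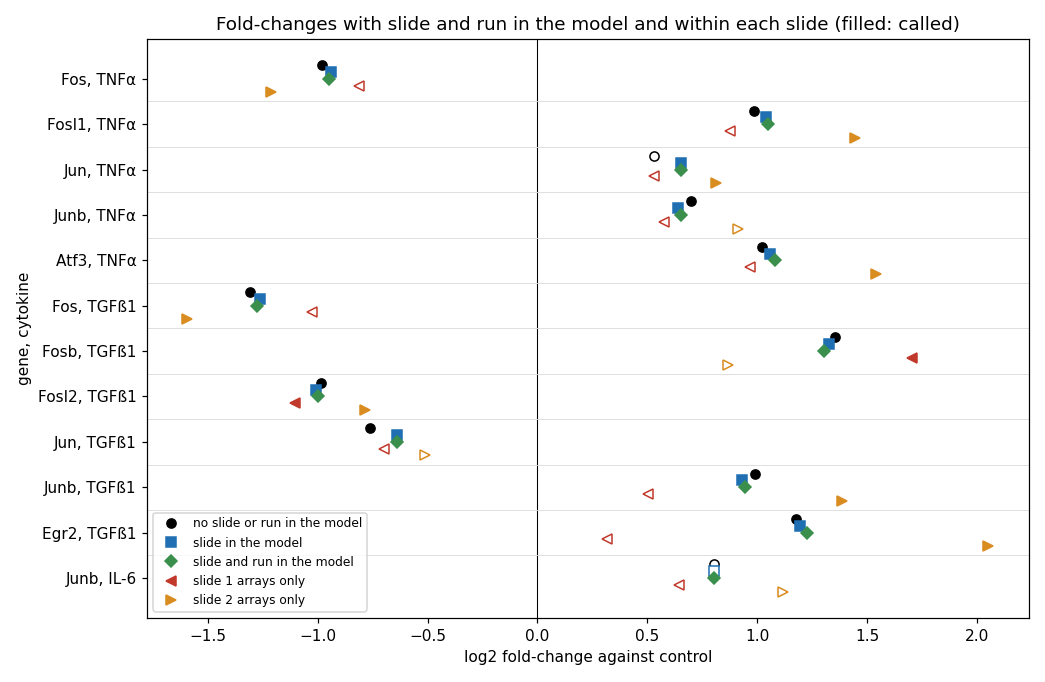
Log2 fold-change against control of every gene and cytokine called, and of *Jun* with TNFα and *Junb* with IL-6, in the model without slide or run (circles), with the slide (squares), with slide and run (diamonds) and on slide 1 or slide 2 alone (triangles); filled symbols were called. Every difference keeps its side of 0, and the slides are farthest apart for *Egr2* with TGFß1.

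Other members of these families were counted next, together with *Nab2*, which is not a member. This made a list of 18 genes with a probe, of which 14 were tested, named family genes below. This list and those of the next paragraphs were chosen with earlier results of these data known. A share above that of all named genes is therefore a description and not a test. With TNFα, 2 rose and 1 fell: *Batf2*, an AP-1 partner of immune cells, rose by 2.01 (SE 0.52, limma q = 0.0248), *Maff*, a small MAF protein, by 0.84 (SE 0.18, limma q = 0.00772), and *Nab2*, a corepressor of EGR proteins, fell by 0.90 (SE 0.12, limma q = 0.00044). With TGFß1, 2 rose and 1 fell as well: *Egr3* rose by 1.16 (SE 0.39, limma q = 0.0449) and *Mafg* by 0.74 (SE 0.16, limma q = 0.00525), while *Maff* fell by 0.59 (SE 0.18, limma q = 0.0282). *Maff* thus moved in opposite directions with the 2 cytokines. The 3 called genes were 21.4% of the list with either cytokine, where 12.7% (TNFα) and 21.2% (TGFß1) of all named genes were called, so that the TGFß1 count was at the background. The median log2 fold-change of the list was -0.06 with TNFα and 0.20 with TGFß1. The TGFß1 count fell to 1 without TGFß1 12.

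Immediate-early genes outside the AP-1 and EGR families were represented by 36 genes, 34 of them tested. With TNFα, 5 rose and 2 fell (20.6% of the list, against 12.7% of all named genes), with a median of 0.12, and without TNFα 4 the count of 7 became 4. *Ier3*, an early survival gene, rose by 2.33 (SE 0.20, limma q = 1.38e-05), *Rhob*, a small GTPase, by 1.48 (SE 0.17, limma q = 0.000146) and *Hbegf*, a growth factor, by 1.23 (SE 0.31, limma q = 0.0210), and *Arc* fell by 2.00 (SE 0.36, limma q = 0.00295). With TGFß1, 11 rose and 4 fell (44.1%, against 21.2%), with a median of 0.23. *Dusp4*, a phosphatase of MAP kinases, rose by 3.34 (SE 0.50, limma q = 0.000514), *Hbegf* by 3.11 (SE 0.31, limma q = 3.19e-05), *Ccn2*, a matrix protein induced by TGFß1, by 3.06 (SE 0.39, limma q = 0.00019) and *Rhob* by 2.63 (SE 0.17, limma q = 1.83e-06). IL-1β raised 1 of the 34 (2.94%, against 0.252% of all tested probes), *Ier3*, by 1.08 (SE 0.20, limma q = 0.0485). This call was lost when any 1 of the 6 control and IL-1β arrays was left out. IL-6 changed 0 in limma's test, with 5 at an unadjusted p below 0.05. Of all 29334 probes, 0.0648% were called with IL-6 and 955 had such a p.

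Among 26 kinases and factors that act upstream of AP-1 and EGR genes, all tested, TNFα raised 1 and lowered 1, and TGFß1 raised 4 and lowered 1. These counts were 7.69% and 19.2% of the list, no higher than the 12.7% and 21.2% of all named genes. Without control 1 or TNFα 9 the TNFα count was 1, and without control 6 the TGFß1 count was 3. *Map2k6*, a kinase that activates p38, rose by 1.09 with TNFα (SE 0.12, limma q = 0.000124) and by 0.99 with TGFß1 (SE 0.12, limma q = 0.000159). The 1 gene lowered by TNFα was *Rps6ka1* (-0.82), named after its values were seen because its arrays overlapped the controls. With TGFß1, *Map3k8* fell by 1.16 (SE 0.29, limma q = 0.0119), and *Mapkapk2*, a kinase downstream of p38, and *Mrtfa*, a partner of serum response factor, rose by 0.87 (SE 0.18, limma q = 0.00376) and 0.72 (SE 0.17, limma q = 0.00943). The last of the 5 genes, *Map2k1*, also named after its values were seen, rose by 0.68 (SE 0.15, limma q = 0.00661). The medians were -0.06 and 0.07. RNA levels of kinases say nothing of their activity, which was not measured.

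Textbook targets of AP-1 and EGR, 22 genes, all tested, gave the largest changes. TNFα raised 8 and lowered 2 (45.5% of the list, against 12.7% of all named genes), with a median of 0.74. The metalloproteinase genes *Mmp13* (5.84, SE 0.22, limma q = 1.77e-08), *Mmp10* (4.72, SE 0.47, limma q = 4.88e-05), *Mmp9* (4.31, SE 0.36, limma q = 1.19e-05) and *Mmp3* (3.89, SE 0.33, limma q = 1.3e-05) led the list. TGFß1 raised 8 and lowered 4 (54.5%, against 21.2%), with a median of 0.57. *Sphk1*, a lipid kinase, rose by 4.32 (SE 0.24, limma q = 5.46e-07) and *Pdgfa*, a growth factor with EGR sites, by 2.87 (SE 0.51, limma q = 0.0017), whereas the collagenase *Mmp1a* fell by 3.00 (SE 0.48, limma q = 0.000859) and *Mmp3* fell by 2.83 (SE 0.33, limma q = 9.78e-05). IL-1β raised 2 of the 22, *Mmp13* by 2.60 (SE 0.22, limma q = 0.000212) and *Fgf7* by 0.81 (SE 0.10, limma q = 0.00303). These were 9.09% of the list, against 0.252% of all tested probes called with IL-1β. IL-6 changed 0 of these 22, 0 of the 14 other family genes and 0 of the 26 upstream genes in limma's test, with 5, 1 and 0 at an unadjusted p below 0.05. IL-1β changed 0 of the 14 and 0 of the 26 in the same test, with 0 and 2 at an unadjusted p below 0.05. Such a p was found for 955 of all 29334 probes with IL-6 and for 1088 with IL-1β. The share of all tested probes called with IL-6 was 0.0648%. The list holds genes with many other regulators and was chosen with earlier results of these data known. Its share is a description, and whether AP-1 or EGR proteins act on these genes here was not tested.

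**Figure D5:**
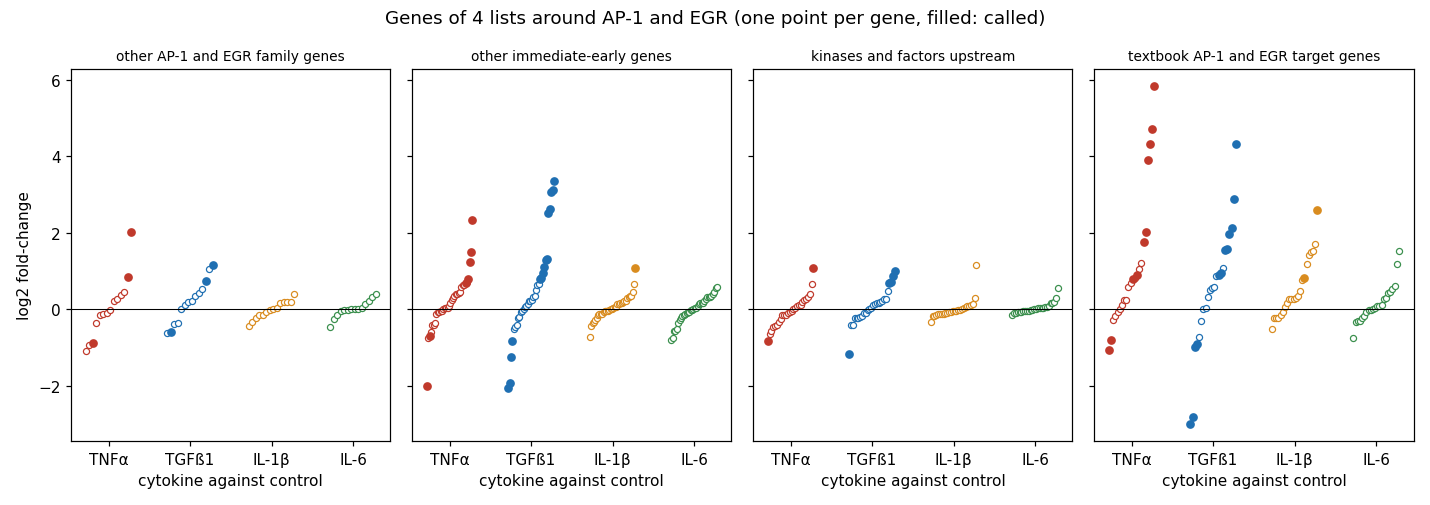
Log2 fold-change against control for the tested genes of 4 lists around AP-1 and EGR (panels), with genes sorted by value within each cytokine; each point is a gene, filled where called. Textbook targets reach 5.84 with TNFα and run from -3.00 to 4.32 with TGFß1, and IL-6 has no filled point.

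For each of the 8 called genes, the named genes with the most similar level over the 15 arrays were found among 13486 others by Pearson's r, given as a description. *Fos* was closest to *Pi15* (0.971) and *Lpcat3* (0.968), *Fosl2* to *Fst* (0.978) and *Plpp3* (0.959), and *Jun* to *Mfsd1* (0.973) and *Pttg1ip* (0.972). *Fosl1* was closest to *Atr* (0.974) and *Stc2* (0.972), *Fosb* to *Tuba1a* (0.935) and *Cd1d1* (0.935), and *Egr2* to *Il12rb1* (0.952) and *Cdk8* (0.948). *Junb* was closest to *Trib3* (0.911) and *Fam3c* (0.894), and *Atf3* to *Lonp1* (0.856) and *Nxph3* (0.828). These values share the 15 arrays and their 5 groups, and a high r follows where genes differ between the same groups.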

How the data were processed

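The members and gene lists were chosen with earlier results of these data known. The authors labelled RNA with Cyanine 3 and read each spot with Agilent Feature Extraction 10.7.3.1; the deposited values are spot intensity after background subtraction and detrending, without normalization between arrays, and the deposited series table holds the same intensity. Here, spots marked as non-uniform or outliers were removed, log2 intensity was averaged per probe, and the 75th percentile over the 59305 non-control spots of each array was subtracted. The 29334 probes bright enough (well above background on all arrays of 1 group or more) were tested with limma 3.58.1 in R 4.3.3 (two-sided, 15 arrays, group means, Benjamini-Hochberg). Probes were named through RefSeq identifiers (GRCm38.p6; array designed on an older build). A gene is represented by its probe with the highest mean. From each list, up to 4 called genes with the largest change and no overlap with control are named. Runs were checked as pairs: with the slide removed, deviations of all 30 same-run pairs correlated (Pearson's r 0.114 to 0.671), against 2 of 60 different-run pairs over 0.1; with the slide kept, 12 of 30 and 28 of 60. Alternatives covered scaling, background, filters, slide, run, probes and arrays left out. The normexp alternative used median brightness, since the files hold no mean signal. The fit was tested on simulated data. The number of arrays limits precision.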

Additional observations from a re-analysis of the deposited data

How the results depend on the processing

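Of the 220 recomputed counts of called AP-1 and EGR genes, 189 stayed within 1.5 times the count reported. For TNFα against control, 4 genes became 1 with median scaling, 2 without a filter, 0 on slide 1 and 1 with only the 6 arrays compared, and 2 to 4 when an array was left out (2 without control 1, control 6, TNFα 4 or TNFα 14). For TGFß1, 6 became 2 on slide 1, and 5 to 6 with an array left out. For IL-6, 0 became 1 with the run as a block, with or without the slide, and stayed 0 with an array left out. IL-1β stayed at 0. IL-1β against TGFß1 gave 6, but 1 on slide 1, 2 on slide 2 and 3 to 6 with an array left out (3 without TGFß1 2, TGFß1 12 or IL-1β 10). IL-1β against TNFα gave 1, but 2 with the slide, 0 on slide 1, 0 on slide 2, 2 with the run as a block and 3 with run and slide. IL-6 against TGFß1 gave 5, but 3 on slide 1 and 2 on slide 2. IL-6 against TNFα gave 3, but 1 with median scaling, 1 on either slide, and 1 to 2 with an array left out (1 without TNFα 4, TNFα 14 or IL-6 8). IL-1β against IL-6 gave 0, but 1 with the run as a block, with or without the slide. The number of all probes called moved too, so these counts are not a result about these genes alone. For IL-1β against TNFα it was 1416, then 1823 with the slide, 2441 with the run and 3073 with both. For TNFα against control it was 2986, then 2324 with median scaling and 2095 with only the 6 arrays compared. For IL-6 against control it was 19, then 68 with the run and 228 with run and slide. The cause was not tested.

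Of 352 recomputed list counts, 58 moved by over 1.5 times. The number of all probes called also moved between the alternatives, so the ranges below are not a result about the lists alone. Over the alternatives other than left-out arrays, TNFα and TGFß1 gave 0 to 5 and 0 to 7 family genes (3 and 3 reported), 2 to 12 and 2 to 18 immediate-early genes (7 and 15), 0 to 6 and 0 to 8 upstream genes (2 and 5) and 4 to 15 and 1 to 15 targets (10 and 12). IL-1β gave 0 to 2 immediate-early genes (1) and 0 to 6 targets (2), and IL-6 0 to 1 and 0 to 3 (0 and 0).

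No called value turned its sign; 46 of 1291 recomputed values, none of them called in either fit, did. Median scaling moved the share of higher calls with TNFα from 40.5% to 29.6% of probes and slide 2 alone to 54.1%. Probes called were 343 on slide 1 for TNFα (2986 reported), 824 for TGFß1 (5283), and 320 for IL-1β (74) and 228 for IL-6 (19) with run and slide. Alternatives with the percentile over distinct probes and with the median brightness were chosen after seeing the data. With 3 arrays per group, *Atf3* with TNFα kept its call in 1 of 6 fits with an array left out, *Junb* with TNFα in 2 and *Egr2* with TGFß1 in 3, and the other 7 calls against control in all 6.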
